A study of Mus musculus with 8 samples.

Results

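Hepatokines are proteins that the liver releases into the blood and that act on metabolism in other tissues. The genes described here are 9 secreted or shed metabolic regulators, Fgf21, Inhbe, Angptl4, Angptl6, Ahsg, Fetub, Rbp4, Lect2 and Dpp4, chosen by name from the 34836 gene names on the array. The rule uses no measured value, although the choice was made with earlier results of these data known. Each was represented by 1 probe of 60 bases. Liver RNA of male mice of the obese and diabetes-susceptible strain NZO (NZO/HiBomDife, n = 4) and of the lean and diabetes-resistant strain B6 (C57BL/6, n = 4) was measured on 1-colour Agilent arrays, 1 for each sample. All samples came from animals of 6 weeks on a diet with 45% fat, so the strain was the only labelled difference, and no other diet or age was measured. The labels number the samples (NZO 003, 007, 009 and 011 and B6 009, 010, 011 and 015) without stating that each is a separate animal. The p-values therefore measure the spread between these samples, which are called mice below.

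FGF21 is an endocrine fibroblast growth factor that hepatocytes release in fasting, in protein restriction and in cellular stress, and it signals through FGF receptors together with the co-receptor beta-klotho. Its gene is a known target of PPAR alpha, the nuclear receptor of the fasting response, and of Atf4, the transcription factor of the amino acid and ER stress response. The fetuins, RBP4 and LECT2 are abundant plasma proteins made by hepatocytes, the angiopoietin-like proteins act on lipoprotein lipase and energy use, and activin E is a member of the TGF-beta family that is made mainly in liver.

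Because the data turn on Fgf21 and Inhbe, stretches of 30 bases from the promoters of these genes are shown, together with Rbp4, which holds the same motif. The motif TGATGNAA, the core of the element bound by Atf4 with C/EBP proteins, was searched on both strands of windows from 250 bases before to 50 bases after each RefSeq start site (build GRCm38). Windows were given for 8 of the 9 genes, 10 windows in total. The motif was found in 3 of these genes. Of all 32851 windows of this length, 1304 held it (3.97%), which is a share of windows and not of genes. The capitals mark the match, each stretch is written 5′ to 3′ on the strand of the gene, and all 3 genes lie on the minus strand.
Fgf21, chr7:45615611-45615640: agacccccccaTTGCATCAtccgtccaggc
Inhbe, chr10:127352011-127352040: catcctctttcTTGCATCAtgcatgtccac
Rbp4, chr19:38125379-38125408: ccttctaaagaTGATGAAAtgaaagaataa
In Fgf21 and Inhbe the match lies on the opposite strand, so that the reverse complement is printed. The match of Fgf21 lies at position -139 from the start site, that of Inhbe at -181 and that of Rbp4 at -76. The Fgf21 window also held CACGTG, the E-box core that carbohydrate-response elements share, at position -50. This palindrome occurred in 7.15% of all windows (2349) and does not overlap the first motif.
Fgf21, chr7:45615523-45615552: gagtggggagggCACGTGggcgggcctgtc
A match of letters is a description of these windows, and binding was not measured.

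On each of the 8 arrays, the 9 probes were all well above background, and 0 of them were saturated. Levels are given as log2 of the processed signal minus the 75th percentile of the array, so that 0 is the signal that 75% of the spots do not exceed. A level of 1 probe cannot be set against that of another probe, because probes differ in how brightly they bind. Differences are log2 fold changes of NZO against B6 from limma, fitted on all 27643 tested probes, with their standard error (SE) and with p-values adjusted by the Benjamini-Hochberg procedure over all of them. In liver tissue, fewer cells of a type and less RNA per cell cannot be told apart.

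Fgf21 and Inhbe were expressed at higher levels in NZO liver, 5.45-fold and 1.86-fold, and Fgf21 alone also passed after adjustment in limma. The thresholds of the methods were a log2 fold change of 0.7 or more in size together with an unadjusted p of 0.05 or less. At these thresholds, 2 of 9 members were higher in NZO, against 5.17% of all tested probes, and 0 of 9 were lower, against 7.08% of all tested probes; the methods' t-test also called 0 lower. With the adjusted p of limma, 1 of 9 was higher (4.34% of all tested probes) and 0 of 9 were lower (5.28%). With the methods' t-test, 0 members passed after adjustment, and the adjusted p of Fgf21 was 0.116. Without the filter on dim probes, the adjusted p of Fgf21 in limma was 0.0952. An unadjusted p of at most 0.05 with any fold was found for 5 of 9 members, Fgf21, Inhbe, Angptl6, Ahsg and Fetub, against 27.8% of all tested probes, and among these only Angptl6 was lower in NZO. The mean was higher in NZO for 7 members and lower for 2, and the median log2 fold change of the 9 members was 0.20, against 0.01 for all tested probes.

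**Figure D1:**
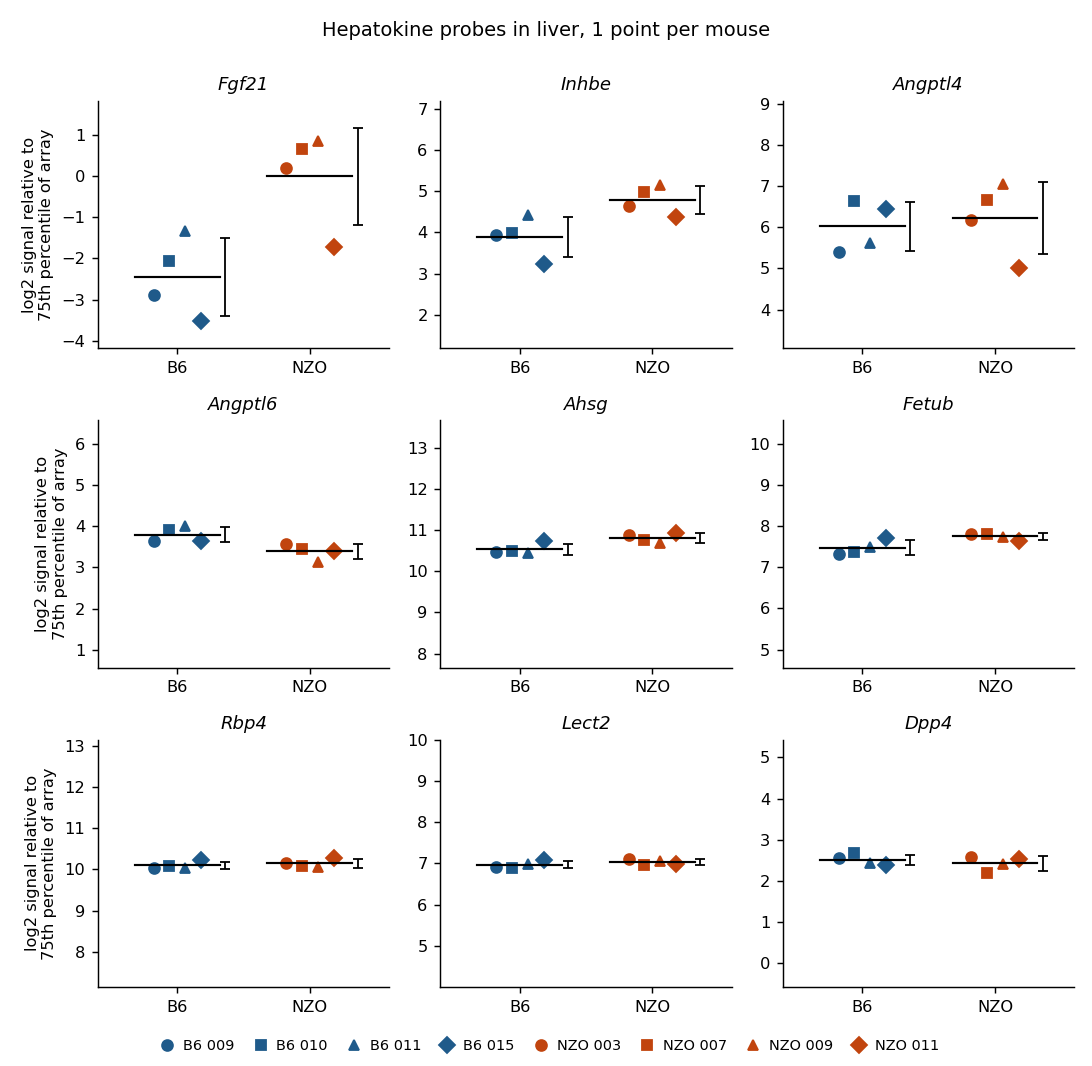
Level of each of the 9 genes in each mouse, as log2 signal relative to the 75th percentile of the array. Symbols are single mice, horizontal lines are strain means and the vertical bars beside them are SD (n = 4); every panel spans the same 6 log2 units. Fgf21 lies between -1.72 and 0.84 in NZO and between -3.53 and -1.33 in B6, whereas Rbp4 and Lect2 hardly differ between mice.

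Fgf21 had the widest spread of the members as well as the largest difference. Its probe, A_52_P235347, lies at chr7:52869305-52869364 of mm9, the build of the array files, and the gene spans chr7:45613890-45615490 of GRCm38. Its level was 0.20 in NZO 003, 0.65 in NZO 007, 0.84 in NZO 009 and -1.72 in NZO 011, and it was -2.88 in B6 009, -2.08 in B6 010, -1.33 in B6 011 and -3.53 in B6 015. Thus, 3 NZO mice lay above every B6 mouse, while NZO 011 lay within the range of B6, and the strains overlapped. Mean levels were -0.01 ± 1.17 for NZO and -2.45 ± 0.95 for B6 (SD, n = 4 each). Fgf21 had a log2 fold change of 2.45 (SE 0.65, 95% confidence interval 0.95 to 3.94, limma adjusted p = 0.0403), which is 5.45-fold with an interval from 1.94 to 15.3. The highest and the lowest mouse differed 5.88-fold within NZO and 4.58-fold within B6. The SD within strains was larger for Fgf21 than for 98.3% of all tested probes. Fgf21 was also dim, with a raw signal between 1.90 and 11.7 times the local background, and its log2 fold change depended on how background was treated: it was 1.35 with normexp correction (adjusted p = 0.0192 in limma) and 1.78 with the raw medians of the deposited table (adjusted p = 0.0196), against 2.45 with the processed signal.

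The direction of Fgf21 was the same under all 20 alternative settings, with log2 fold changes between 1.35 and 3.02. It passed the unadjusted thresholds in 18 and the adjusted ones in 10 of them, with adjusted p-values from 0.00804 to 0.498. Without NZO 011 the log2 fold change was 3.02 and the adjusted p 0.00804, and without B6 011 these were 2.82 and 0.0356. Leaving out any other mouse ended the adjusted call of limma, with an adjusted p of 0.105 without B6 009, 0.0772 without B6 010, 0.0983 without B6 015, 0.0994 without NZO 003, 0.0910 without NZO 007 and 0.0927 without NZO 009. Arrays shared slides and scan days. The difference of Fgf21 was 3.0 within slide 1 (1 NZO and 2 B6 arrays), 2.57 within scan day 1 (3 NZO and 2 B6) and 2.75 within scan day 2 (1 NZO and 2 B6). Only slide 1 held both strains, so the fit with the slide as a fixed term rests on the same 3 arrays for its difference, at an unadjusted p of 0.0615 in limma.

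Inhbe encodes the beta E subunit of activin and is expressed mainly in hepatocytes. Its probe, A_51_P357735, lies at chr10:126786719-126786778 (mm9) and the gene at chr10:127349402-127351848 (GRCm38). Its level was 4.64 in NZO 003, 4.98 in NZO 007, 5.14 in NZO 009 and 4.38 in NZO 011, against 3.93 in B6 009, 3.98 in B6 010, 4.42 in B6 011 and 3.24 in B6 015. As for Fgf21, the 3 other NZO mice lay above every B6 mouse and NZO 011 lay below B6 011. Mean levels were 4.79 ± 0.34 for NZO and 3.89 ± 0.49 for B6 (SD, n = 4 each), a log2 fold change of 0.89 (SE 0.27, 95% confidence interval 0.28 to 1.5, unadjusted p = 0.00978, adjusted p = 0.0622 in limma). Without B6 015 it was 0.67, below the fold threshold, and without B6 011 it was 1.07 with an adjusted p of 0.0394. Inhbe passed the unadjusted thresholds in 17 of 20 alternatives, and its adjusted p ranged from 0.0342 to 0.472. The difference was 1.03 within slide 1, 1.11 within scan day 1 and 0.81 within scan day 2.

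**Figure D2:**
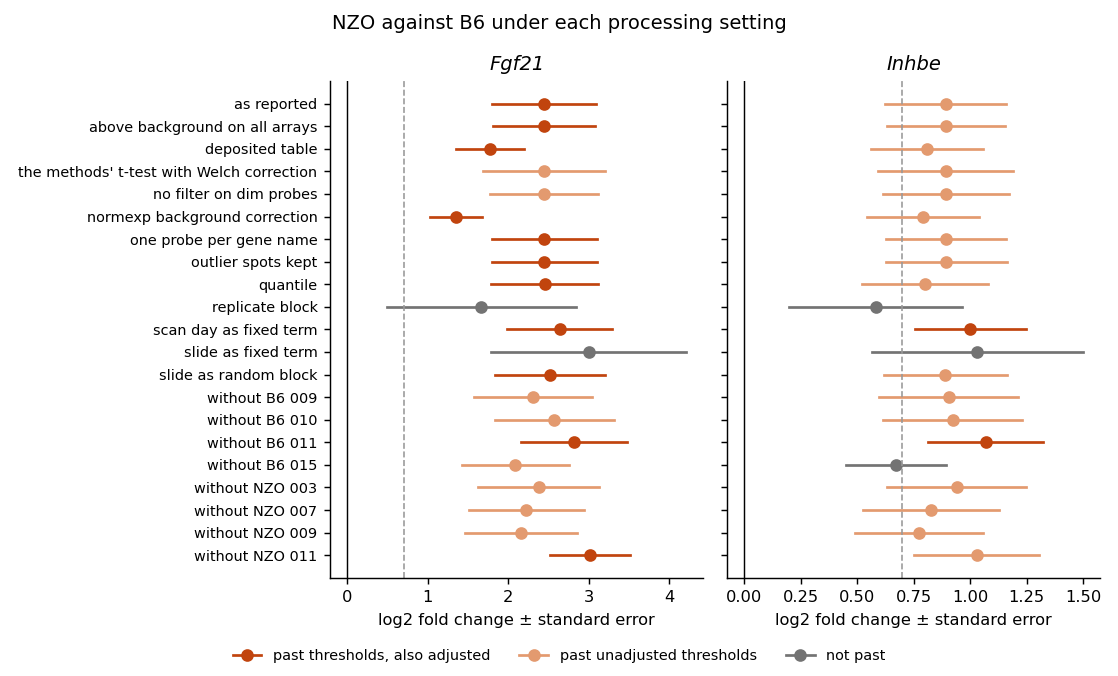
Log2 fold change of Fgf21 and Inhbe in NZO against B6 as reported and under the 20 alternative settings. Points are estimates, bars are standard errors, the dashed line is the fold threshold of 0.7 and the colours give the call. Fgf21 stays between 1.35 and 3.02 and Inhbe between 0.58 and 1.07, and both lose the call with the replicate block and with a fixed slide term.

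Of the angiopoietin-like proteins, Angptl4, a secreted inhibitor of lipoprotein lipase and a target of the PPAR receptors, varied strongly between mice without a detectable strain difference. The probe A_51_P338443 lies at chr17:33911880-33911939 (mm9) and the gene at chr17:33774900-33781575 (GRCm38). Its level was 6.17 in NZO 003, 6.66 in NZO 007, 7.04 in NZO 009 and 5.02 in NZO 011, and 5.40 in B6 009, 6.63 in B6 010, 5.61 in B6 011 and 6.43 in B6 015. The highest and the lowest value of all 8 arrays both belonged to NZO. Between the strains, Angptl4 had a log2 fold change of 0.20 (SE 0.46, 95% confidence interval -0.86 to 1.26, limma adjusted p = 0.813), an interval that leaves room for a change past the threshold in either direction. The difference was -0.45 within scan day 1, 1.15 within scan day 2 and -0.36 within slide 1.

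Angptl6, a relative of Angptl4 also known as angiopoietin-related growth factor, was the only member whose strains did not overlap, which held for 22.0% of all tested probes in either direction. Its probe A_51_P259571 lies at chr9:20678326-20678385 (mm9) and the gene at chr9:20873808-20879822 (GRCm38). Its level was 3.57 in NZO 003, 3.46 in NZO 007, 3.12 in NZO 009 and 3.41 in NZO 011, and 3.64 in B6 009, 3.90 in B6 010, 4.01 in B6 011 and 3.64 in B6 015. The gap between NZO 003 and the lowest B6 mice was small. Angptl6 had a log2 fold change of -0.41 (SE 0.14, 95% confidence interval -0.72 to -0.09, adjusted p = 0.0922 in limma), which is 1.33-fold more in B6 and short of the fold threshold. It stayed below 0 under all 20 alternatives, between -0.56 and -0.20.

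Ahsg and Fetub encode fetuin-A, a plasma protein that binds calcium phosphate and can inhibit the insulin receptor, and fetuin-B, an inhibitor of the egg protease ovastacin. The genes neighbour each other on chromosome 16, Ahsg at chr16:22892015-22899451 and Fetub at chr16:22918382-22939768 (GRCm38). Their probes, A_51_P424854 and A_55_P2050902, lie at chr16:22899415-22899474 and chr16:22939736-22939795 (mm9). The level of Ahsg was 10.88 in NZO 003, 10.75 in NZO 007, 10.68 in NZO 009 and 10.92 in NZO 011, and 10.47 in B6 009, 10.50 in B6 010, 10.44 in B6 011 and 10.73 in B6 015. Here, B6 015 lay among the NZO mice and the other B6 mice below all of them. The log2 fold change of Ahsg was 0.27 (SE 0.11, 95% confidence interval 0.02 to 0.52, adjusted p = 0.146 in limma). The level of Fetub was 7.82 in NZO 003, 7.80 in NZO 007, 7.74 in NZO 009 and 7.64 in NZO 011, and 7.33 in B6 009, 7.37 in B6 010, 7.49 in B6 011 and 7.72 in B6 015. Again, B6 015 alone reached into the range of NZO. The log2 fold change of Fetub was 0.27 (SE 0.11, 95% confidence interval 0.02 to 0.53, adjusted p = 0.157 in limma). With quantile normalization the log2 fold change was 0.02 for Ahsg and 0.14 for Fetub, at unadjusted p-values of 0.754 and 0.203 in limma. The summed linear level of 6 hepatocyte markers, all detected on every array and with the probe of Alb as the brightest, was also higher in each NZO mouse (3849 to 3990) than in any B6 mouse (3061 to 3844), and its part in these differences was not tested. This sum was carried by Alb (log2 fold change 0.27) and Ttr (0.15), whereas Apoa1 (0.004), Cps1 (-0.02), Tdo2 (-0.22) and Tat (-0.31) were even or lower in NZO, and none of the 6 passed the thresholds.

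Rbp4, the carrier of retinol in plasma, and Lect2, a hepatocyte protein that attracts neutrophils and is raised in fatty liver, were the most even members. Their genes lie at chr19:38116620-38125321 and chr13:56529734-56548559 (GRCm38), and the probes A_55_P2006118 and A_55_P2074762 at chr19:38191120-38191179 and chr13:56643829-56643888 (mm9). The level of Rbp4 was between 10.06 and 10.29 in NZO and between 10.03 and 10.22 in B6. Its log2 fold change was 0.05 with a 95% confidence interval from -0.17 to 0.27 (adjusted p = 0.772 in limma), so that a change of 0.7 in either direction lies outside the interval. The level of Lect2 was between 6.97 and 7.12 in NZO and between 6.90 and 7.08 in B6. Its log2 fold change was 0.07 with an interval from -0.14 to 0.27 (adjusted p = 0.678 in limma). Both flipped sign under quantile normalization. The SD within strains was smaller for 5.85% of all tested probes than for Rbp4 and for 1.86% than for Lect2.

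Dpp4 encodes a serine peptidase of the cell surface that is shed into plasma and inactivates the incretins. The gene lies at chr2:62330073-62412315 (GRCm38) and its probe A_51_P467110 at chr2:62170062-62170121 (mm9). Its level was 2.57 in NZO 003, 2.18 in NZO 007, 2.40 in NZO 009 and 2.54 in NZO 011, and 2.55 in B6 009, 2.67 in B6 010, 2.45 in B6 011 and 2.40 in B6 015. The strains overlapped, with NZO 007 below all B6 mice and B6 010 above all NZO mice. For Dpp4 this gave a log2 fold change of -0.09 (SE 0.12, 95% confidence interval -0.36 to 0.18, adjusted p = 0.665 in limma), and the interval does not reach the fold threshold.

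**Figure D3:**
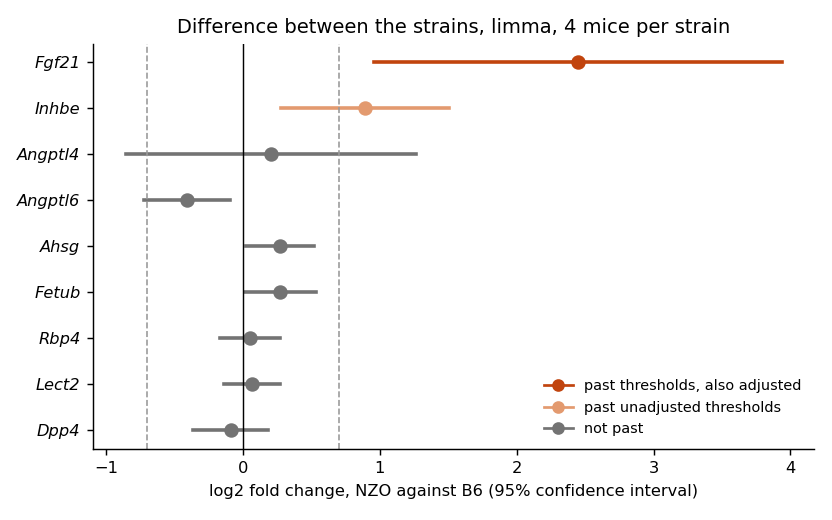
Log2 fold change of the 9 genes in NZO against B6 with 95% confidence intervals (limma, 4 mice per strain). Dashed lines mark 0.7 in either direction and colours give the call. Fgf21 at 2.45 and Inhbe at 0.89 lie beyond the threshold, and the interval of Angptl4 is wide, from -0.86 to 1.26.

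Within the strains, the mice differed more for Fgf21, Angptl4 and Inhbe than for the fetuins, Rbp4 and Lect2, a description that was not tested. The median SD within strains of all tested probes was 0.232, and it was 1.07 for Fgf21, 0.754 for Angptl4 and 0.423 for Inhbe, against 0.124 for Ahsg, 0.135 for Fetub, 0.0942 for Rbp4 and 0.0751 for Lect2. Fgf21 and Angptl4 also exceeded the 90th percentile of all tested probes, 0.632. Each gene has a lowest and a highest mouse in a strain of 4, so that some mice are extreme for several of the 9 genes in any case. NZO 011 was the lowest NZO mouse for 4 members, Fgf21, Inhbe, Angptl4 and Fetub, and the highest for Ahsg and Rbp4. NZO 009 was the highest NZO mouse for Fgf21, Inhbe and Angptl4 and the lowest for Ahsg, Rbp4 and Angptl6. B6 015 was the lowest B6 mouse for Fgf21, Inhbe and Dpp4 and the highest for 4 members, Ahsg, Fetub, Rbp4 and Lect2. B6 011 was the highest B6 mouse for Fgf21, Inhbe and Angptl6 and the lowest for Ahsg and Rbp4. NZO 003 was the highest NZO mouse for 4 members, Fetub, Angptl6, Dpp4 and Lect2, and the lowest for none, and NZO 007 was the lowest for Dpp4 and Lect2. B6 009 was the lowest B6 mouse for Fetub, Angptl4 and Angptl6, and B6 010 was the highest for Angptl4 and Dpp4 and the lowest for Lect2. These are ranks of 4 mice and were not tested. Some of them depend on the scaling of the arrays. In the processed signal without scaling, NZO 009 was the highest NZO mouse for Ahsg (232270) and Rbp4 (151661). Likewise, B6 011 was the highest B6 mouse for Rbp4 (166372). These 2 mice had the highest 75th percentile of their strain, 142 in NZO 009 and 159 in B6 011. The lowest and highest mice for Fgf21, Inhbe and Angptl4 were the same without scaling.

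**Figure D4:**
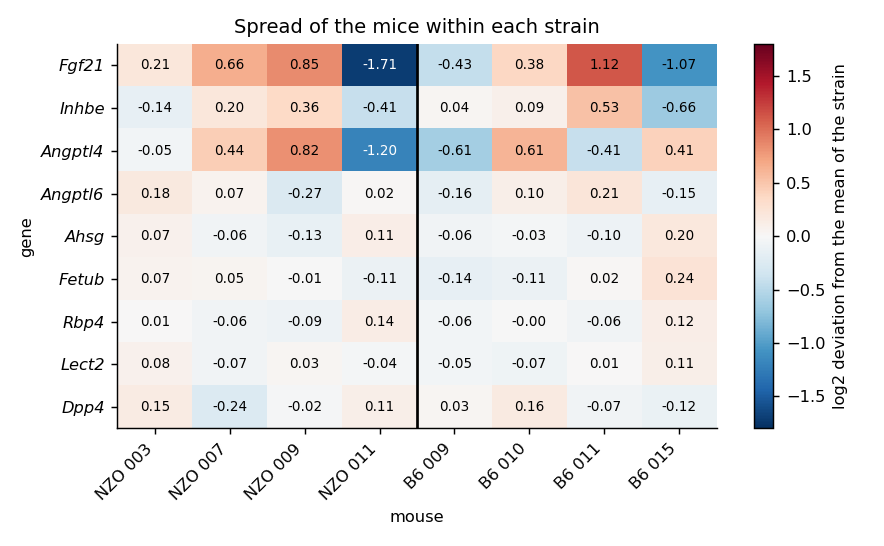
Deviation of each mouse from the mean of its strain for the 9 genes, in log2 units, with the strains separated by the black line. Blue is below and red above the strain mean; the extremes are NZO 011 at -1.71 and B6 011 at 1.12, both for Fgf21.

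By the likeness rule, the genes whose level across the 8 arrays most resembled that of Fgf21 were sought among 20196 genes, each by its brightest probe and after subtraction of its own mean. The root mean square difference to Fgf21 was 0.657 for Tafa2, a chemokine-like secreted protein, and 0.693 for Acsm2, a medium-chain acyl-CoA synthetase of mitochondria. It was 0.704 for the probe A_66_P138634, which the files do not name, and the median over all genes was 1.54. Acsm2 was between -0.04 and 0.70 in NZO and between -2.12 and -0.87 in B6. Tafa2 was above background on 2 of 4 B6 arrays and the unnamed probe on 1 of 4.

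In the pathways around the 9 genes, 12 lists with 123 genes were described, of which 146 probes for 108 genes were tested. Of these probes, 18 (12.3%) were higher and 15 (10.3%) lower in NZO at the thresholds of the methods, and 15 and 9 passed with the adjusted p. Over all tested probes these shares were 5.17% and 7.08%, and 4.34% and 5.28% with the adjusted p. The median log2 fold change of the 146 probes was -0.04. Several lists hold genes measured by more than 1 probe, and the probes of a gene are not independent. Where 5 or fewer probes of a list passed, their genes are named, a choice made after the values were seen.

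None of the 10 tested probes for receptors of FGF21 passed the thresholds in limma or in the methods' t-test. At an unadjusted p of at most 0.05, 2 were higher and 2 lower, and the median was -0.21. Klb, the co-receptor beta-klotho, had a log2 fold change of 0.19 (adjusted p = 0.342 in limma), and Kl, the co-receptor klotho, was above background on 0 of 8 arrays. The main FGF receptor of hepatocytes, Fgfr4, lay just short of the fold threshold at 0.70 with 1 probe (adjusted p = 0.00633 in limma), between 0.64 and 0.79 when each mouse was left out, and at 0.38 with the other. The 3 probes of Fgfr1, the receptor through which FGF21 mainly signals in fat tissue, gave -0.18, -0.43 and -0.49. Fgfr2 had log2 fold changes of -0.25 and -0.14 with its probes, and Fgfr3 of -0.30 and -0.34.

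Of the regulators of Fgf21, the PPAR alpha list of 14 genes had 4 of 21 probes higher in NZO and 0 lower, with a median of 0.20; at an unadjusted p of at most 0.05 the count of lower probes was also 0 in limma, and the methods' t-test gave 3 higher and 0 lower. The higher probes measured Cyp4a14 and Cyp4a10, fatty acid omega-hydroxylases, and Pdk4, a kinase that shuts down pyruvate dehydrogenase. Cyp4a14 was 3.70 in NZO 003, 1.71 in NZO 007, 2.48 in NZO 009 and 1.44 in NZO 011, and -0.63 in B6 009, 0.17 in B6 010, -1.48 in B6 011 and -0.52 in B6 015. Its strains did not overlap, and the log2 fold change was 2.95 (adjusted p = 0.00680 in limma). Cyp4a10 had log2 fold changes of 1.16 and 1.55 with these probes, and its other probe gave 0.91 with overlapping strains and was not past the thresholds. Pdk4 had one of 0.80, and none of the probes of Cyp4a10 and Pdk4 passed after adjustment. Thus, 1 of the 21 probes passed with the adjusted p. For Cyp4a14 as for Fgf21, NZO 011 was the lowest NZO mouse, but in B6 the mouse with the highest Fgf21, B6 011, had the lowest Cyp4a14.

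The Atf4 list of 14 genes for the amino acid and ER stress response had 0 of 19 probes higher and 3 lower, with a median of -0.21. At an unadjusted p of at most 0.05, 2 probes were higher and 6 lower in limma, and the methods' t-test gave 0 higher and 2 lower. The lower probes measured Asns, asparagine synthetase (log2 fold change -0.75), Eif2ak4, the amino acid sensor kinase GCN2 (-1.19), and Ern1, the ER stress sensor IRE1 (-0.79), and 0 passed after adjustment. The Eif2ak4 probe was above background on 3 of 4 NZO arrays. The other tested probes of this gene gave 0.08 and -0.50, the latter also above background on 3 of 4 NZO arrays. The lower values of Eif2ak4 thus rest partly on NZO values not well above background, and cannot show whether its probes differed in direction. The other tested probes of Ern1 gave 0.34 and -0.50, the latter above background on 1 of 4 NZO arrays. The Ern1 probes above background on all arrays, at 0.34 and -0.79, differed in direction. The probes of Atf4 itself gave 0.40 and 0.30, neither past the thresholds. In the carbohydrate list of 8 genes, 2 of 10 probes were higher and 1 lower, and all 3 passed with the adjusted p. Pklr, the liver pyruvate kinase, had a log2 fold change of 0.96 (adjusted p = 0.0206 in limma) and Tkfc, the triokinase of fructose metabolism, of 1.03 (adjusted p = 0.0265). Srebf1, the regulator of lipid synthesis, had one of -0.79 (adjusted p = 0.0159), and the median of the list was -0.19.

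Among the relatives and partners of Inhbe, 1 of 15 tested probes was higher and 1 lower, with a median of -0.03. Inhba, the beta A subunit of activin, was 3.19 in NZO 003, 3.09 in NZO 007, 3.23 in NZO 009 and 2.99 in NZO 011, and 2.34 in B6 009, 1.68 in B6 010, 2.89 in B6 011 and 2.0 in B6 015. The strains did not overlap, and the log2 fold change was 0.90 (adjusted p = 0.0401 in limma). Inhbb, the beta B subunit, had a log2 fold change of -0.92 that did not pass after adjustment (adjusted p = 0.0572 in limma). Inha, the alpha subunit of the inhibins, was above background on 0 of 8 arrays.

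For the angiopoietin-like proteins and the lipases on which they act, 1 of 10 tested probes was higher and 0 lower, with a median of -0.07; at an unadjusted p of at most 0.05, 2 probes were lower in limma, and the methods' t-test called 0 lower. Angptl7 was well above background on all 4 NZO arrays and on 0 of 4 B6 arrays. With the processed signal it was 3.03-fold higher in NZO when each B6 array counted with its dimmest level well above background wherever Angptl7 was dimmer. This is not a lower limit, because that level is the dimmest of any probe well above background on the array. Other treatments of background also gave less. The fitted value of Angptl7 had an adjusted p of 0.00151 in limma. The probe was tested because of its signal in NZO, and its p rests on B6 values that were not well above background. The fitted value fell below the fold threshold with the deposited table (0.64) and with normexp correction (0.43).

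Neither the neighbours nor the targets of the fetuins passed the thresholds, with 0 of 6 tested probes in the cystatin superfamily and 0 of 4 among the targets, and the methods' t-test also gave 0 in both lists. The medians were -0.12 and -0.17. At an unadjusted p of at most 0.05, 1 probe of the first list was higher in limma, that of Cst3 (cystatin C, log2 fold change 0.36), and of the second list 1 was higher (Insr) and 1 lower (Tlr4). Of the genes next to Ahsg and Fetub on chromosome 16, Hrg, histidine-rich glycoprotein, had a log2 fold change of -0.19, Kng2 of -0.11 and Kng1, kininogen, of -0.13 and 0.07 with its probes. Cstb, cystatin B, had one of -0.15. The insulin receptor Insr had log2 fold changes of -0.32, -0.06 and 0.46 with its 3 probes (adjusted p = 0.374, 0.692 and 0.0189 in limma), so the probes differed in direction. Tlr4, the lipopolysaccharide receptor, had one of -0.28 with 1 probe and was above background on 0 of 8 arrays with the other. Astl, the gene of ovastacin, was above background on 0 of 8 arrays.

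The retinol list of 11 genes had 1 of 8 tested probes higher and 1 lower, with a median of 0.11. Rdh11, a retinol dehydrogenase, had a log2 fold change of 0.85 (adjusted p = 0.0309 in limma). The sum of 4 stellate cell markers, linear and with the probe of Dcn as the brightest and all 4 detected on every array, was 41.0 to 51.4 in NZO and 54.7 to 64.0 in B6; stellate cells store retinol, and the part of this sum in the values of the list was not tested.

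Of the receptors of LECT2, 0 of 3 tested probes were higher and 1 lower, with a median of 0.05; at an unadjusted p of at most 0.05, 0 probes were higher in limma, and the methods' t-test also called 0 higher and 1 lower. Cd209a, a lectin of dendritic cells and macrophages, was above background on all 4 B6 arrays and on 0 of 4 NZO arrays with the tested probe. With the processed signal it was 1.83-fold lower in NZO when each NZO array counted with its dimmest level well above background wherever Cd209a was dimmer. The fitted value had an adjusted p of 0.000690 in limma. As for Angptl7, the 1.83-fold is not a lower limit for Cd209a. Its fitted value was -0.24 with the deposited table and -0.10 with normexp correction, neither past the thresholds. The probe was tested because of its signal in B6, and its p rests on NZO values that were not well above background. Other markers of such cells gave a log2 fold change of -2.04 for Itgax, an integrin of dendritic cells (adjusted p = 0.0358 in limma, above background on 2 of 4 NZO arrays), and of -0.42 for Cd68, a macrophage protein (adjusted p = 0.0445), both without overlap between the strains. Itgax too was tested because of its signal in B6, and its fitted value and p rest partly on NZO values not well above background. In the other direction, the macrophage marker Lyz2 gave 0.41 and the T cell marker Cd3e 0.33, neither past the thresholds. Their part in the difference of Cd209a was not tested. Met, the receptor of hepatocyte growth factor, had a log2 fold change of 0.10 and Tie1, an endothelial receptor, of 0.05. Among the peptidases related to Dpp4 and the incretins, 0 of 8 tested probes were higher and 1 was lower, that of Fap, fibroblast activation protein (log2 fold change -0.87, adjusted p = 0.0897 in limma). At an unadjusted p of at most 0.05, this list had 0 higher probes in limma, and the methods' t-test called 0 in either direction. The median was -0.01, and Gcg and Gipr were above background on 0 of 8 arrays.

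Among other proteins known as hepatokines, 9 of 32 tested probes were higher and 7 lower, and 9 and 6 of them passed after adjustment. Counted by gene, 4 of 22 tested genes were higher and 6 lower at the unadjusted thresholds, since several probes measured the same gene. The median over the probes was 0.17. The largest changes of this list were those of Igfbp2 and Igfbp1. Igfbp1, an IGF-binding protein whose gene insulin represses, was 3.10 in NZO 003, 3.78 in NZO 007, 4.19 in NZO 009 and 4.27 in NZO 011, and 6.21 in B6 009, 7.37 in B6 010, 6.08 in B6 011 and 7.13 in B6 015. Its log2 fold change was -2.86 (adjusted p = 0.00127 in limma). Igfbp2, which also binds IGFs, was between 0.11 and 2.08 in NZO and between 4.64 and 4.92 in B6 with its more strongly changed probe. The log2 fold change of this probe was -3.60 (adjusted p = 0.000433 in limma). Igf1 itself was higher in NZO, with a log2 fold change of 1.34 for the probe that changed most (adjusted p = 0.00262). None of the 3 genes overlapped between the strains.

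Lcn2, the acute phase protein lipocalin 2, was between -0.68 and 0.41 in NZO and between 1.13 and 4.28 in B6, where B6 015 held the highest value, and its log2 fold change was -2.70 (adjusted p = 0.0203 in limma). Apoa4, an apolipoprotein that rises with hepatic fat, had a log2 fold change of 1.23 (adjusted p = 0.0358 in limma). Serpina12, which encodes the adipokine vaspin, had one of 1.12 (adjusted p = 0.0389 in limma), with levels between 0.63 and 0.86 in NZO and between -1.34 and 0.06 in B6.

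Of the genes named from the lists and past the adjusted thresholds, Cyp4a14, Igfbp1, Igfbp2 and Igf1 kept the adjusted call of limma when any single mouse was left out. Angptl7 and Cd209a kept it as well, but their p-values rest on values of the lower strain that were not well above background. Inhba lost it without any mouse other than B6 011, with adjusted p-values up to 0.103, and Serpina12 without any mouse other than B6 011 and B6 015, up to 0.0959. Apoa4 lost it without B6 009, B6 010, B6 011, NZO 003 or NZO 011 (up to 0.0914), and Rdh11 without B6 009, B6 011, B6 015, NZO 003 or NZO 009 (up to 0.0844). Tkfc lost it without NZO 003 or any of the B6 mice (up to 0.0752), Pklr without B6 011, B6 015 or NZO 003 (up to 0.0603), and Lcn2 without B6 011, NZO 003, NZO 009 or NZO 011 (up to 0.0577). Srebf1 fell short of the fold threshold without B6 009 (-0.67) and without NZO 007 (-0.69). Apart from Srebf1, these genes stayed past the unadjusted thresholds in each case.

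**Figure D5:**
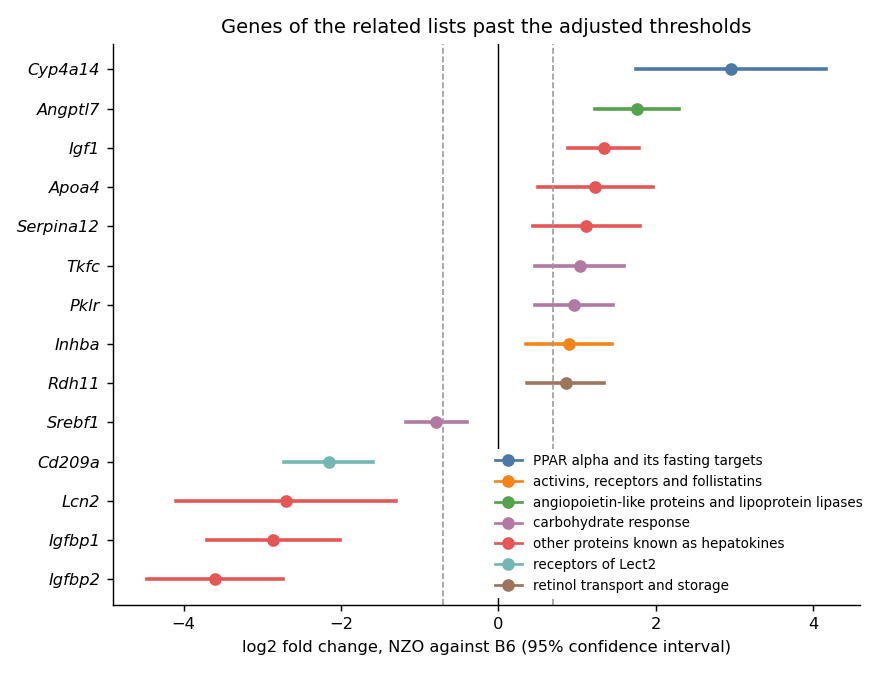
Log2 fold change in NZO against B6, with 95% confidence intervals, for the genes named here from the related lists that passed the thresholds with the adjusted p (limma, 4 mice per strain, the most strongly changed probe of each gene). Colours are lists and dashed lines mark 0.7 in either direction. Above 0 lie 9 genes and below it 5. Angptl7 and Cd209a were not above background in the lower strain, so that their points are fitted values that depend on how background was treated.

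Markers of other cell types were measured on the same arrays. Adipoq, Plin1 and Lep, which define adipocytes, were above background on 0 of 8 arrays, and Car3, which hepatocytes also express, made up most of the adipocyte sum (409 to 481 in B6 and 565 to 644 in NZO). Of 6 markers of exocrine pancreas, 4 were above background on 0 arrays, and their sum was 1.36 to 2.30 in NZO and 1.29 to 1.75 in B6. The sum of 4 red blood cell markers, with the probe of Hba-a1 as the brightest and all 4 detected on every array, was 293 to 470 in NZO and 155 to 208 in B6. The sum of 5 leukocyte markers, of which Cd3e had the brightest probe, was 10.8 to 18.8 in NZO and 10.8 to 13.4 in B6. Within this list the log2 fold changes differed in direction, with -2.04 for Itgax, -0.52 for Ptprc, -0.42 for Cd68, 0.33 for Cd3e and 0.41 for Lyz2. That of Itgax is only a fitted value, since its probe was above background on 2 of 4 NZO arrays. The sum of 5 markers of sinusoidal endothelium, with that of Clec4g as the brightest, was 77.8 to 103 in NZO and 77.2 to 87.9 in B6. Of these, Stab2 (log2 fold change 0.48) and Lyve1 (-0.62) separated the strains without overlap in opposite directions, at sizes short of the fold threshold. The sum of 4 biliary markers was 0.472 to 0.768 in NZO and 1.14 to 1.53 in B6, with the probe of Krt19 named as the most abundant. Only 2 of these 4 were above background on every array. Krt7 was so on 2 of 4 NZO arrays, and Epcam on 0 of 4 NZO and 3 of 4 B6 arrays. The sum of 4 skeletal muscle markers, with that of Myh4 as the brightest, was 16.4 in NZO 007 and 5.49 in B6 010 and lay between 0.186 and 1.39 in the other mice. Without NZO 007 the log2 fold change of Fgf21 was 2.23 and that of Inhbe 0.83, and without B6 010 these were 2.57 and 0.92. The part of the other cell types in the differences was not tested.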

How the data were processed

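The 9 genes and the lists were chosen with earlier results of these data known. Liver RNA of 4 NZO and 4 B6 mice was measured on 1-colour arrays. The authors deposited the intensity of each spot as scanner output of Agilent Feature Extraction, version 11.0.1.1 per the file headers and 9.1 per the submitters' processing notes. The processed signal is the intensity after background subtraction within the array, without scaling between arrays. The deposited table named as normalized held the raw median intensity for 59305 of 59305 spots on each array (tolerance 0.01) and served as an alternative.

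Spots marked as outliers, 96 to 137 on an array, were dropped, log2 of the processed signal was set relative to its 75th percentile on the array, and spots of a probe were averaged. A probe was tested when all 4 arrays of 1 strain or of both showed it well above background (27643 of 55681). The 75th percentile of the signal was 119 to 142 in NZO and 136 to 159 in B6, and 50.4% to 55.0% and 53.1% to 60.1% of spots were well above background. The number of arrays limits the precision. The fit used limma 3.58.1 in R 4.3.3 with Benjamini-Hochberg adjustment, and pandas 2.3.3 and matplotlib 3.10.9 made tables and plots. The limma step was tested on simulated data. Probe positions in the files are those of mm9, and exon annotation of that build was not used here. Gene names are those of the files, updated where the accession matched RefSeq (27656 probes). Promoters are from RefSeq (GRCm38).

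Named were all members, from each list the genes past the adjusted thresholds (at most 6, by size of change), all genes of lists of 6 or fewer, and for each member past the adjusted thresholds the 3 genes most like it. The value of 1 gene of the lists is not reported here, and it is part of the counts and medians of its list. Alternatives were normexp correction (offset 50), quantile normalization, the deposited table, other filters, 1 probe per gene name, outlier spots kept, slide or scan day as a term, a replicate block, the methods' t-test with Welch correction, and leaving out each mouse.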

Additional observations from a re-analysis of the deposited data

Results flagged for a closer look

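By Dixon's criterion at its 95% critical value, a single mouse lay far from the 3 others of the strain in 14 of 166 strain groups of probes, and chance gives about 1 in 20. Of the 18 strain groups of the 9 hepatokine genes, 0 stood apart. B6 015 was apart for 5 probes, Kng2 at 7.45, Serpina12 at -1.34, Igfbp2 at 4.64, Cela1 at -2.55 and Itgax at -1.18 (log2 level relative to the 75th percentile of the array). NZO 007 was apart for Insr at 0.23, Cd68 at 1.79 and the muscle marker Acta1 at 2.81. B6 011 was apart for Tat at 5.77 and Ctrb1 at -0.23, and B6 010 for Kng1 at 6.69 and Reln at -0.35. NZO 003 was apart for Cstb at 3.89 and NZO 011 for Krt7 at -5.00. Krt7 was above background on 2 of 4 NZO arrays, so its place here rests partly on levels not well above background.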

How the results depend on the processing

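Of 180 values for the 9 genes under 20 alternatives, 167 kept their direction and their side of the thresholds, 5 kept the direction without passing and 8 changed sign. The number of members higher in NZO was 0 with the replicate block, 0 with a fixed slide term, and 1 to 2 when leaving out each mouse in turn. The mouse numbers 009 and 011 occur in both strains but share only a number: the deviations from the strain means correlated at -0.26 and -0.004 across all tested probes. The replicate block took the number as a fixed term, so its strain difference rests on the mice numbered 009 and 011 alone. With it Fgf21 was 1.67 and Inhbe 0.58, while 72 probes were higher and 134 lower with the adjusted p, against 1199 and 1460 with all mice and no block. The smaller counts therefore also reflect fewer mice. Of all tested probes, 916 were higher and 891 lower with the deposited table (main values 1429 and 1957), 652 and 614 with normexp correction, and 1190 lower when only probes above background on all arrays were kept. The cause of these shifts was not tested. Angptl4 turned to -0.36 with the slide as a fixed term and ranged from -0.07 to 0.61 when leaving out each mouse, below 0 without B6 009 (-0.0007) or NZO 009 (-0.0689). With the slide as a fixed term, Dpp4 was 0.0398, Rbp4 -0.003, Cstb 0.0681 and the Fgfr2 probes 0.0763 and 0.1228. Quantile normalization gave -0.0983 for Rbp4, -0.0685 for Lect2 and -0.0903 for 1 Kng1 probe. Normexp gave -0.0098 for Rbp4, 0.0063 for 1 Fgfr2 probe and 0.016 for Tlr4. The replicate block gave 0.0013 for 1 Fgfr2 probe, 0.0307 and 0.0058 for 2 Insr probes, -0.0315 for Met and -0.0552 for Tie1. Leaving out each mouse gave -0.245 to 0.0313 for that Fgfr2 probe and -0.0188 to 0.177 for Met, both beyond 0 without NZO 007, and -0.0049 to 0.169 for Tie1, beyond 0 without NZO 003. Signal over background limits Fgf21, whose raw signal came within 1.90 times its background.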
